A study of Mus musculus with 2 samples.

Results

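Retained introns are introns that some spliced reads of a gene keep inside an exon while other reads of the same gene splice them out. An intron was eligible when an annotated transcript model (class Known in the deposited tables) with 10 or more reads over both libraries splices it out. It counted as retained when it lay wholly inside a single exon of another counted model of the same gene that had 2 or more exons and was Known, an incomplete splice match (ISM), a new combination of annotated splice sites (NIC) or a model with at least 1 unannotated splice site (NNC). Of 69434 eligible introns in 7797 genes, 11637 (16.8%) in 4086 genes were retained by at least 1 read. The retention share of an intron in a library is its retaining reads over its retaining plus splicing reads, and those reads are called informative below. Presence of a retaining read chose the introns, so their number and the size of their shares are described here with no test. The only test, given below, compares the shares of the 2 libraries.

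The data are long-read RNA-seq of total RNA from the left cerebral cortex of female B6CASTF1/J mice, hybrids whose parents are C57BL/6J and CAST/EiJ, aged 14 days. The 2 libraries are numbered as biological replicates of 1 group with no other genotype or treatment, each made from 2 µg of RNA with ERCC and SIRV spike-ins; the biosample note of replicate 1 may mean several pooled females, while that of replicate 2 names 1 female. Replicate 1 held 1072344 mouse reads and replicate 2 held 753520, of which 82.0% and 79.0% were on models with an intron. Cortical markers were present in both libraries, with Slc17a7, the vesicular transporter of excitatory neurons, at 1334 and 839 reads, while Pcp2 and Cbln3 of cerebellum had no read. Of the choroid plexus transcripts, Ttr had 27 reads in replicate 1 and 193 in replicate 2, while Kl had no read in either. Among oligodendrocyte markers, Mbp had 3673 RPM, scaled to the mouse reads of each library, in replicate 1 and 2142 in replicate 2, Cnp 909 and 660 and Mag 134 and 59.7. Mog, with 5 reads in each library, went the other way, at 4.66 RPM in replicate 1 and 6.64 in replicate 2. The part of these differences in the retention shares was not tested.

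Splicing removes an intron at a donor site, usually GT, and an acceptor site, usually AG; most introns are removed by the major spliceosome and a small minority, some of them with AT-AC ends, by the minor spliceosome that uses U12 snRNA. A transcript that keeps an intron in its coding part usually meets a stop codon, and is often held in the nucleus or degraded by nonsense-mediated decay. In neurons, intron retention is known in transcripts of RNA-binding proteins, which often control their own level this way, and in transcripts that wait in the nucleus. Where an intron has a length divisible by 3 and no stop codon in frame, its retention lengthens the protein; such introns inside coding exons are called exitrons.

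Whole introns are printed for 5 genes because they were read through in frame with no stop codon, inside an internal exon, at a mean share of 20% or more; capitals mark the first and last 2 bases. Their positions on mm10 are chr7:7291727-7291819 (minus strand) for Clcn4, chr17:32338355-32338456 (minus) for Akap8l, chr4:42933668-42933778 (plus) for Phf24, chr8:70598618-70598701 (minus) for Ssbp4 and chr11:61450903-61450977 (minus) for Rnf112.
Clcn4 intron 8: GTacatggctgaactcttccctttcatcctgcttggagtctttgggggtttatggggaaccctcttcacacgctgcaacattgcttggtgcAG
Akap8l intron 4: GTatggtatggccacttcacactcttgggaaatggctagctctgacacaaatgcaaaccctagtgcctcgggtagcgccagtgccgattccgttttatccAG
Phf24 intron 3: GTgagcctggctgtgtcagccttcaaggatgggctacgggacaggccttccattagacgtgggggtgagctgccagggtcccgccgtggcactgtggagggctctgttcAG
Ssbp4 intron 13: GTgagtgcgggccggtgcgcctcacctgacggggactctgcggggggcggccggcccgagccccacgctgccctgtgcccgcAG
Rnf112 intron 8: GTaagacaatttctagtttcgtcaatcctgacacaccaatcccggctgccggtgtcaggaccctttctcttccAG

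Splice sites are printed for 3 retained introns with AT-AC ends or a U12-type donor, and for 3 introns of RNA-binding protein genes described below. Each donor window holds the last 4 exon bases and 16 intron bases, and each acceptor window 20 intron bases and the next 4 exon bases; capitals mark the intron's end dinucleotides. The introns lie on mm10 at chr11:120467241-120467362 (minus strand) for Arl16, chr2:181686247-181686597 (plus) for Tcea2, chr15:89145176-89145374 (minus) for Mapk11, chr12:80947866-80949094 (plus) for Srsf5, chr17:80204388-80205261 (minus) for Srsf7 and chr11:106782694-106783958 (minus) for Ddx5.
Arl16 intron 1 donor: cagaATatccttccgcgccg
Arl16 intron 1 acceptor: tggcccttgaccgccgggACagct
Tcea2 intron 6 donor: gagtATatcctttgtacagg
Tcea2 intron 6 acceptor: gggtccttaaacacctgcACgcat
Mapk11 intron 8 donor: gactGTatccttggggagca
Mapk11 intron 8 acceptor: gtgtttcctgagctaggtAGacat
Srsf5 intron 5 donor: gcagGTttgttgaaatacag
Srsf5 intron 5 acceptor: cataattgtcttgtgttaAGgatc
Srsf7 intron 3 donor: gcagGTatttaattaatgaa
Srsf7 intron 3 acceptor: ttttctaacttaaaaaatAGgtca
Ddx5 intron 11 donor: ctagGTtagtacaaactcga
Ddx5 intron 11 acceptor: cacactgcaacaccttacAGatgt

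Retention was rare for most of these introns and prevailed in a few. Of the 11637 retained introns, 4983 had a single retaining read, 5326 had 2 to 9, 1250 had at least 10 and under 100, and 78 had 100 or more. Retaining reads were present in both libraries for 4909 introns, in replicate 1 alone for 3165 and in replicate 2 alone for 3563. Over all eligible introns, 38877 of 6347678 informative intron passages were retaining in replicate 1 (0.612%), against 35556 of 4247760 in replicate 2 (0.837%).

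Shares are given for the 9145 retained introns, in 3099 genes, that had 20 or more informative reads in each library. The median share was 1.16% in replicate 1 and 1.89% in replicate 2, and the 90th percentile was 8.0% and 11.6%. These values depend on depth, since 1 read is a larger share of fewer informative reads. With 50 or more informative reads in each library the medians were 0.752% and 1.18%. Among the 9145 introns, a mean share over both libraries of 5% or more was reached by 1701 introns (18.6%), of 10% or more by 846 introns in 579 genes, of 20% or more by 377 and of 50% or more by 95 in 86 genes. Across these 9145 introns, the shares of both libraries had a Pearson r of 0.889 and a Spearman rho of 0.240, a description over introns that share libraries and, in part, reads; many shares rest on a single read. At the read minimum, 257 of 2440 introns whose Known model had exactly 10 reads were retained, with a median share of 7.41%, against 184 of 2260 introns just outside, with 9 reads and a median of 9.09%.

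**Figure D1:**
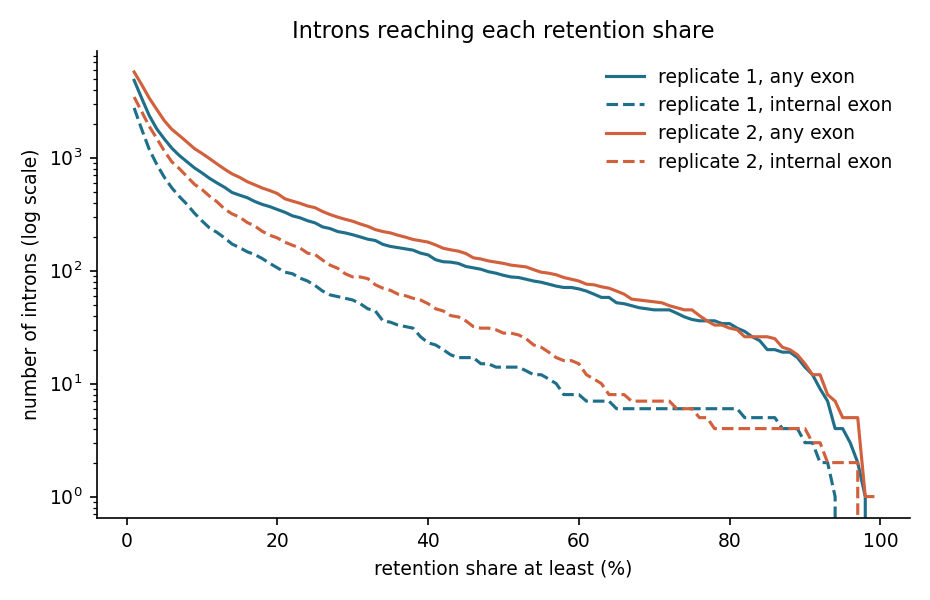
Number of introns (log scale) whose retention share reached at least the value on the x axis (%), among the 9145 retained introns with 20 or more informative reads in each library, for replicate 1 and replicate 2; solid lines count any retaining exon and dashed lines internal exons alone. In replicate 1, 734 introns reached 10%, against 1092 in replicate 2.

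Where the retaining exon sits decides how certain retention is for a read. An internal exon is bounded by splice junctions on both sides, so each of its reads crossed the whole intron. A retaining exon at a transcript's start or end depends on where the model begins or stops, and for models outside the annotation the deposited files give 1 start and end per model and library, not per read. Known models carry the exons of GENCODE M21, so their starts and ends are those of the annotation. Whether each of their reads crossed the whole intron in a terminal exon is therefore not shown. Internal exons held 40.6% of the 74433 retaining intron passages and retained 7047 introns, first exons held 34.0% and retained 4006, and last exons held 25.4% and retained 2719; an intron can be in more than 1 of these counts. Introns at a mean share of 50% or more were mainly in first exons (41) and last exons (35), with 19 in internal exons.

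By model class, Known models gave 32.0% of retaining passages, NIC 33.0%, NNC 4.02% and ISM 31.0%. Within the Known part, 70.0% were on transcripts annotated as protein coding and 25.7% on transcripts annotated as retained_intron. Among the 1194 introns with a counted Known retaining model, 781 lay in the coding part of the spliced model and in a noncoding retaining model, 120 lay in a 5′ UTR of both and 35 in a 3′ UTR of both. Of the 95 introns at a mean share of 50% or more, 91 (95.8%) lay within an exon of a GENCODE M21 transcript, beside 28.0% of all retained introns.

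Among introns kept in internal exons, 5639 had enough reads, with a median internal share of 0.917% in replicate 1 and 1.63% in replicate 2. Their mean internal share reached 20% or more for 125 introns in 98 genes and 50% or more for 14 introns in 12 genes. The genes at 50% or more, named after their values were seen, were Rsrp1 (3 introns), Clcn4, Akap8l, Tesc, Entr1, Tcea2, Clasrp, Phf24, Tmem191c, Gprasp2, Gtpbp6 and Dennd6b.

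Rsrp1, which encodes an arginine- and serine-rich nuclear protein, carried the highest internal share when splicing was counted for the exact intron. Its intron 4 (204 bases, chr4:134925822-134926025, plus strand) was kept by 292 of 307 informative reads in replicate 1 (95.1%, 95% Wilson interval 92.1 to 97.0) and by 271 of 277 in replicate 2 (97.8%, 95.4 to 99.0). Nearly all of these, 549 of 563, were in an internal exon, and 512 were on a model annotated as retained_intron. Introns of Rsrp1 overlap, so the same reads retain its intron 3; counting every overlapping spliced intron as splicing gave 83.7% and 87.1% for Rsrp1 intron 4, a mean of 85.4%, which lies below the 93.2% of Clcn4 intron 8 on that count.

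Clcn4, the gene of an endosomal chloride/proton exchanger, kept the 93-base intron 8 in 318 of 340 reads of replicate 1 (93.5%, 90.4 to 95.7) and 194 of 209 of replicate 2 (92.8%, 88.5 to 95.6). The intron lies in coding sequence, its length is divisible by 3 and it holds no in-frame stop, and the annotated retaining model is protein coding. Splicing of these 93 bases was the minor form, in 22 and 15 reads. Of the 512 retaining reads, 507 held it in an internal exon, and 398 were on ISM models, 73 on NIC, 33 on NNC and 8 on Known models. The mean share of Clcn4 intron 8 was 75.6% without ISM retaining models and 17.6% with Known retaining models alone, against 93.2%. Here and below, such figures leave out retaining reads of the other classes but keep splicing reads of all classes. By construction they cannot exceed the share with all classes.

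Akap8l, the gene of a nuclear A-kinase anchoring protein, kept intron 4 (102 bases, as printed above) in 59 of 68 reads of replicate 1 (86.8%, 76.7 to 92.9) and 54 of 74 of replicate 2 (73.0%, 61.9 to 81.8), with overlapping intervals. Phf24, the gene of a PHD finger protein, kept intron 3 (111 bases) in 83 of 129 reads of replicate 1 (64.3%) and 35 of 63 of replicate 2 (55.6%). Ssbp4, of the single-stranded DNA binding protein family, kept intron 13 (84 bases) in 123 of 338 reads of replicate 1 (36.4%, 31.4 to 41.6) and 94 of 266 of replicate 2 (35.3%, 29.8 to 41.3), with no Known model among its retaining models; 166 of 217 retaining reads were NIC.

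Other internal introns that read through in frame at a mean internal share of 20% or more were Tesc intron 5 (93 bases), Dus3l intron 8 (177), Map7d1 intron 7 (96), Rnf112 intron 8 (75) and Hnrnpl intron 7 (111). That makes 9 of the 89 coding introns of that group for which sequence was at hand (10.1%), while 72 of the 89 (80.9%) held an in-frame stop. A comparison of stops with introns of low share was void, because sequence, which came from annotated transcripts that contain the intron, covered 78.8% of the coding introns at 20% or more and 19.6% of those under 1%. Length alone, known for all, was divisible by 3 in 39 of 113 (34.5%) coding introns at 20% or more and in 739 of 2285 (32.3%) under 1%. Tesc encodes the calcium-binding protein tescalcin: its 93-base intron was kept in 81.6% and 75.8% of informative reads, but a donor nearby gives a 98-base form with more splicing reads, against which the same retaining reads made up 38.1% and 39.7%.

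Several introns of splicing regulators were kept in internal exons. Srsf5, an SR protein that promotes exon inclusion, kept intron 5 (1229 bases) in 46 of 185 reads in replicate 1 (24.9%, 19.2 to 31.6) and 66 of 134 in replicate 2 (49.3%, 40.9 to 57.6). Srsf7 kept intron 3 (874 bases) in 33 of 83 reads in replicate 1 (39.8%, 29.9 to 50.5) and 36 of 69 in replicate 2 (52.2%, 40.6 to 63.5). In these genes the retaining exon was internal for 111 of 112 and 69 of 69 retaining reads, and an in-frame stop was present in each intron.

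The RNA helicase gene Ddx5 kept intron 11 (1265 bases) in 103 of 683 reads of replicate 1 (15.1%, 12.6 to 17.96) and 144 of 514 of replicate 2 (28.0%, 24.3 to 32.0); 154 of its 247 retaining reads were on a model annotated for nonsense-mediated decay. Srsf2, another SR protein, kept its 3′ UTR intron 2 in 14.3% and 22.2% of reads, but 42 of its 64 retaining reads were in terminal exons; internal exons alone gave 4.95% and 9.68%, and the mean share was 9.08% without ISM models, against 18.3% with them. Sf3b1, a core subunit of the U2 snRNP, kept intron 4 (1813 bases) in 7 of 81 and 18 of 69 reads, or 8.64% and 26.1%. Replicate 2 had the higher share in each of these genes; only Srsf5 and Ddx5 passed the test between libraries given below.

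Introns with U12-type sites were few among those with sequence. Of the 3257 retained introns with sequence, 3215 had GT-AG, 32 GC-AG and 6 AT-AC ends, and 16 (0.491%) began, on the transcript's strand, with the letters ATATCCTT or GTATCCTT, beside 24 of all 5110 eligible introns with sequence (0.470%), which include them. A comparison of these shares was void, because sequence was at hand for 28.0% of retained introns and 3.21% of those with no retaining read. Arl16, the gene of a small ADP-ribosylation factor-like GTPase, kept its AT-AC intron 1 in 29 of 51 reads of replicate 1 (56.9%, 43.3 to 69.5) and 21 of 48 of replicate 2 (43.8%, 30.7 to 57.7), in first exons. Tcea2, a transcription elongation factor gene, kept AT-AC intron 6 in 21 of 35 reads (60.0%) and 15 of 24 (62.5%), in internal exons. The p38 kinase gene Mapk11 kept intron 8, with a U12-type start but GT-AG ends, in 7 of 53 reads (13.2%) and 12 of 34 (35.3%), a difference that did not pass (Fisher's exact test, adjusted p = 0.704); the mean of Mapk11 intron 8 was 15.6% when retaining models needed 2 or more reads, against 24.3%.

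Last exons held the introns with most retaining reads. Mtch1, the gene of a mitochondrial outer membrane protein, kept the 422-base intron 12 in 951 of 1033 reads of replicate 1 (92.1%, 90.3 to 93.6) and 661 of 714 of replicate 2 (92.6%, 90.4 to 94.3); it lies in the 3′ UTR and 1546 of 1612 retaining reads were on Known models. Osbpl1a, an oxysterol-binding protein family gene, kept 3′ UTR intron 14 in 92.4% and 93.3%. Glo1, the glyoxalase gene that detoxifies methylglyoxal, kept 3′ UTR intron 6 in 98.9% and 97.2%, with 4 and 8 splicing reads. For these 3 introns the intervals of both libraries overlapped.

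Gpm6b, of the proteolipid family of myelin and neuronal membranes, kept intron 7 (1470 bases) in 461 of 561 reads of replicate 1 (82.2%, 78.8 to 85.1) and 378 of 438 of replicate 2 (86.3%, 82.8 to 89.2). Counting all overlapping spliced introns instead of this exact one gave a mean of 28.9%, against 84.2% with the exact intron, since introns that share a splice site with it or span it were then counted too. For Hnrnpdl intron 8, at the 3′ end of an hnRNP gene, that mean was 24.95%, against 82.5% with the exact intron. Pja1, the gene of a RING-type ubiquitin ligase, kept the 549-base coding intron 2 in 288 of 297 reads (97.0%) and 179 of 183 (97.8%), all on Known protein-coding models, and the intron is open and divisible by 3. Its mean was 73.7% when all overlapping introns counted as splicing, against 97.4% with the exact intron.

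Mat2a makes S-adenosylmethionine, and retention of its last intron is known to depend on the level of that product. Intron 8 (585 bases) was kept in 77 of 246 reads of replicate 1 (31.3%, 25.8 to 37.3) and 86 of 199 of replicate 2 (43.2%, 36.5 to 50.2), a difference that did not pass after adjustment (Fisher's exact test, adjusted p = 0.547). Pnisr, the gene of an SR-related nuclear protein, kept its last intron 11 in 74 of 107 reads (69.2%) and 54 of 68 (79.4%), on NIC, NNC and ISM models alone; without ISM the mean was 46.7%, against 74.3%. In Gria2, an AMPA receptor subunit gene, the last intron 15 was kept in 11.6% and 11.5%, and in Syn1, a synaptic vesicle phosphoprotein gene, intron 12 (927 bases) was kept in 8.38% and 8.18%. Both rested on last exons of ISM models, whose ends are unannotated: without ISM the mean was 1.38% for Gria2 intron 15, against 11.6%, and 0.163% for Syn1 intron 12, against 8.28%. Counting every overlapping intron as splicing gave 4.93% for Syn1.

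Further last-exon introns were kept with fewer reads. Ednrb, the endothelin receptor B gene, kept its GC-AG intron 7 in the 3′ UTR in 62 of 70 reads of replicate 1 (88.6%) and 42 of 47 of replicate 2 (89.4%). Retreg2, a gene of the endoplasmic reticulum autophagy regulator family, kept the 111-base open coding intron 9 in 205 of 248 reads (82.7%) and 119 of 140 (85.0%). Cacfd1 and Tmem33 kept their last introns, whose retention ends the coding sequence within the intron, at means of 85.8% and 84.2%; for Cacfd1 the mean with every overlapping intron counted was 61.0%. AC149090.1, on an unplaced scaffold, kept intron 6 in 270 of 431 reads of replicate 1 (62.6%) and 187 of 341 of replicate 2 (54.8%) with no Known retaining model. ISM models held 416 of these 457 reads, and the mean without them was 11.3%, against 58.7%; 115 and 57 of the reads belonged to intron chains that reached past the intron in only 1 library, as described below.

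Of the 2210 introns with enough reads that were kept mainly in first exons, 269 (12.2%) lay in the 5′ UTR of the spliced model and 1909 (86.4%) in its coding part, while of the 41 at a mean share of 50% or more, 29 (70.7%) lay in the 5′ UTR and 11 (26.8%) in the coding part. Spop, the substrate adaptor of a Cullin-3 ubiquitin ligase, kept intron 1 (200 bases) in 433 of 476 reads of replicate 1 (91.0%, 88.1 to 93.2) and 275 of 312 of replicate 2 (88.1%, 84.1 to 91.3). Arpc2, a subunit of the actin-branching Arp2/3 complex, kept intron 1 (207 bases) in 84.2% and 81.5%. Uqcrq, a complex III subunit of the respiratory chain, kept an 85-base intron 1 in 351 of 361 reads (97.2%) and 229 of 231 (99.1%). Ubl3, a ubiquitin-like membrane-anchored protein, kept intron 1 in 89.8% and 86.4%. In each of these 4 genes the intervals of both libraries overlapped. The zinc transporter gene Slc39a7 kept intron 1 in 97 of 108 reads of replicate 1 (89.8%) and 71 of 79 of replicate 2 (89.9%), and Men1, the gene of the chromatin-associated protein menin, kept intron 1 in 35 of 42 (83.3%) and 22 of 29 (75.9%).

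In first exons of ribosomal protein genes, Rpl28 kept 5′ UTR intron 1 (322 bases) in 69 of 124 reads (55.6%) and 47 of 79 (59.5%), and none of these remained when retaining exons had to reach 20 bases beyond both ends of the intron. Rps6 kept intron 1 (461 bases) in 56 of 180 (31.1%) and 39 of 117 (33.3%). Rpl41 kept intron 1 (116 bases) in 84.9% and 92.0%, but its mean was 12.1% when all overlapping introns counted as splicing, against 88.5% with the exact intron. The shortest retained introns with enough reads were in Hnrnph1 (56 bases, 2.94% and 2.38%) and Gcdh (57 bases, 34.2% in both libraries), and the longest in Cyhr1 (7180 bases, 3 of 249 reads of replicate 1 and 0 of 151 of replicate 2, which allows a share of up to 2.48% by the Wilson interval).

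**Figure D2:**
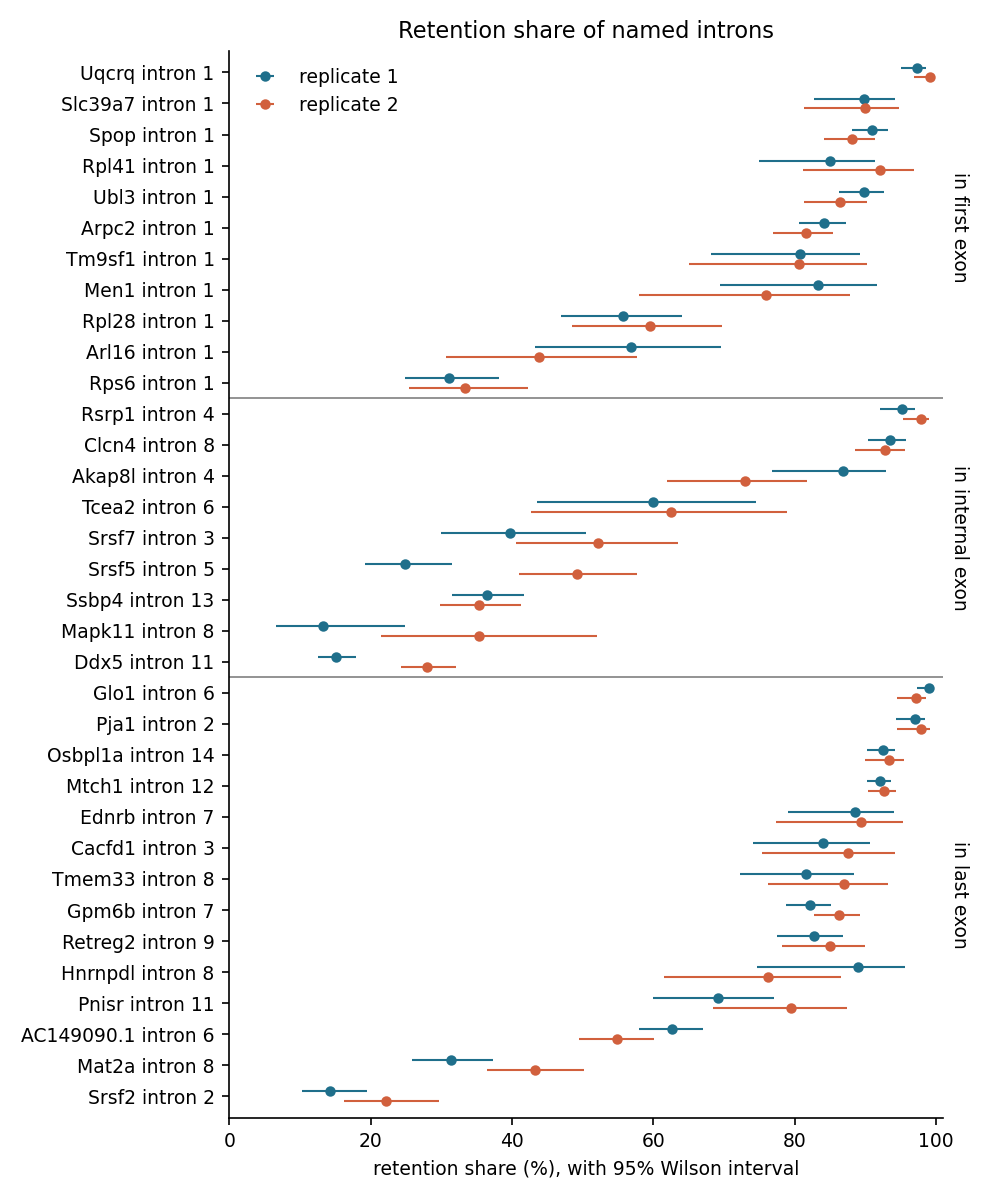
Retention share (%) with its 95% Wilson interval for named introns in replicate 1 (upper, blue) and replicate 2 (lower, orange), grouped by the exon that held most retaining reads: first, internal or last. Rsrp1 intron 4 and Clcn4 intron 8 lie above 90% in both libraries, while the intervals of Srsf5 intron 5 and Ddx5 intron 11 do not overlap between libraries.

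Retained introns were short. Their median length was 354 bases, against 1616 bases for the 57797 eligible introns with no retaining read, and 34.0% against 10.8% were under 200 bases. Over the 43780 eligible introns with 20 or more informative reads in each library, 46.4% of those under 100 bases were retained, 41.2% from 100 to under 200, 37.1% from 200 to under 500, 24.1% from 500 to under 1000, 16.9% from 1000 to under 2000, 6.78% from 2000 to under 5000 and 0.219% (14 of 6397) from 5000 bases. Summed shares over all reads were 1.59% in replicate 1 and 1.90% in replicate 2 under 100 bases, and 0.0827% and 0.141% from 2000 to under 5000 bases. An intron counted as retained only when 1 exon held it whole, so a retained long intron needs a longer read to be seen. Read lengths were not examined, and the part of this limit in the fall with length was not tested.

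**Figure D3:**
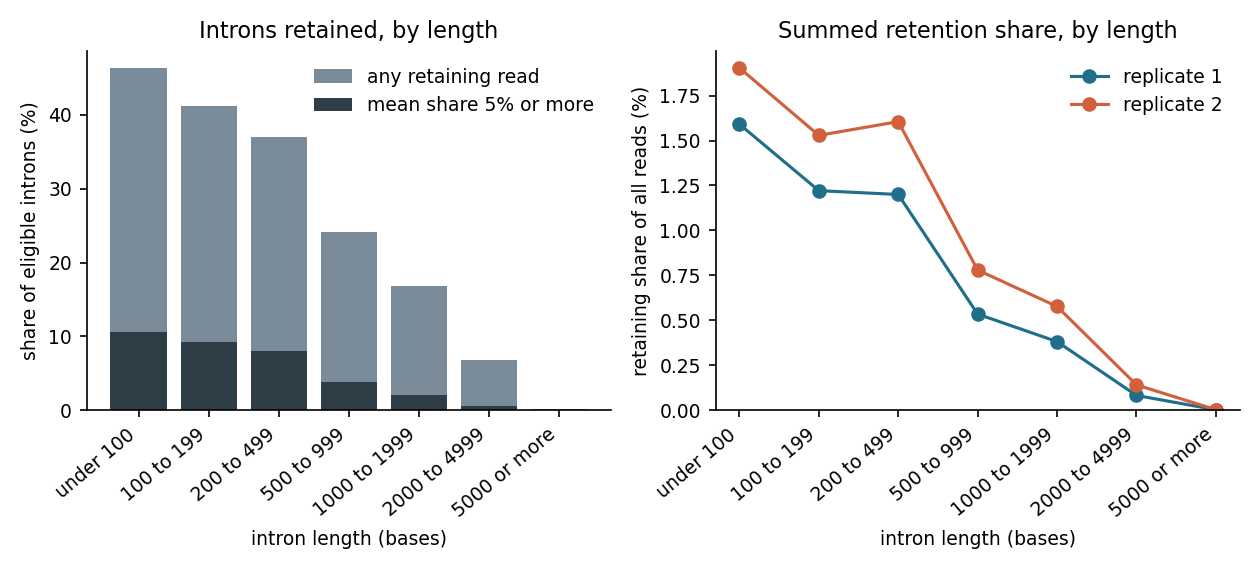
Left, share of the 43780 eligible introns with enough reads (%) by intron length in bases that had any retaining read (grey) or a mean retention share of 5% or more (dark). Right, retaining reads as a share of all informative reads (%) summed over the introns of each bin in replicate 1 (blue) and replicate 2 (orange). Under 100 bases 46.4% of introns had a retaining read, and at 5000 bases or more 0.219%; the summed share of replicate 2 was 1.61% from 200 to under 500 bases and 1.53% from 100 to under 200. Retention needs 1 exon that holds the whole intron, so long introns are harder to see as retained.

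A comparison of GC content was void, because sequence was at hand for 28.0% of retained introns and 3.21% of those with no retaining read. By rank in the transcript, 10.6% of retained introns were the first of their model, against 12.7% of those with no retaining read, but at a mean share of 50% or more 42.1% were the first and 34.7% the last.

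Most genes kept few introns. Of the 4086 genes, 1495 had a single retained intron and 726 had 5 or more. Vars, the valyl-tRNA synthetase gene, had the most, 21 of 29 introns with 52 retaining passages in all and no mean share above 9.86%. It was followed by Hip1r (19 of 31), Skiv2l (18 of 27), Cpsf1 (17 of 36) and Aifm3 (16 of 20). Read by read, 28855 reads of replicate 1 (3.28% of spliced reads) and 25055 of replicate 2 (4.21%) kept at least 1 eligible intron. Of these, 81.8% and 78.0% kept exactly 1, and 5.61% and 7.24% kept 3 or more, and the median such read had 6 introns spliced out.

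Gene lists give the retained introns a place in the cell's functions. The lists were chosen with earlier results of these data known, so their figures are a description and not a test. Overlapping introns kept by the same reads, such as those of Rsrp1 among the RNA-binding protein genes, count separately. Over the 43780 eligible introns with enough reads, 3.89% had a mean share of 5% or more. This share fell with intron length, from 10.6% under 100 bases to 0.0313% from 5000 bases. The lists were not matched for intron length, and its part in their figures was not tested. The figure was 9 of 62 (14.5%) in SR protein genes, 29 of 239 (12.1%) in genes of hnRNPs and other RNA-binding proteins, 5 of 53 (9.43%) in the splicing kinases of the Clk and Srpk families and 37 of 405 (9.14%) in ribosomal protein genes. It was 4 of 125 (3.20%) in presynaptic genes (introns 1 and 2 of Vamp2 and a pair of overlapping last introns of Syn1), 3 of 83 (3.61%) in postsynaptic genes, 2 of 53 (3.77%) in neuronal genes regulated by Ptbp1 (the same introns of Vamp2), 11 of 359 (3.06%) in respiratory chain genes, 2 of 93 (2.15%) in core spliceosome genes and 7 of 337 (2.08%) in ubiquitin and proteasome genes. None was found among 52 introns of myelin genes and 64 of astrocyte genes. Genes known for retained introns had 1 of 45 (2.22%), Mat2a. The Ptbp1 list was chosen for introns near the 3′ end, while these introns of Vamp2 are the first 2 of its 4. Without ISM models their means were 0.151% for intron 1, against 6.45%, and 0.116% for intron 2, against 5.73%.

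Retained introns of SR protein genes had medians of 1.54% in replicate 1 and 4.27% in replicate 2, and those of hnRNP and other RNA-binding protein genes 1.67% and 1.94%, beside 1.16% and 1.89% for all retained introns. The kinase Srpk1 kept intron 10 in 5 of 58 and 7 of 46 reads (8.62% and 15.2%), and Clk2 kept intron 4 in 6 of 51 and 5 of 38 (11.8% and 13.2%). Of the 11 retaining reads of Clk2 intron 4, 7 were on ISM models; the mean was 4.60% without ISM, against 12.5%, and internal exons alone gave 6.25% and 5.71%.

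**Figure D4:**
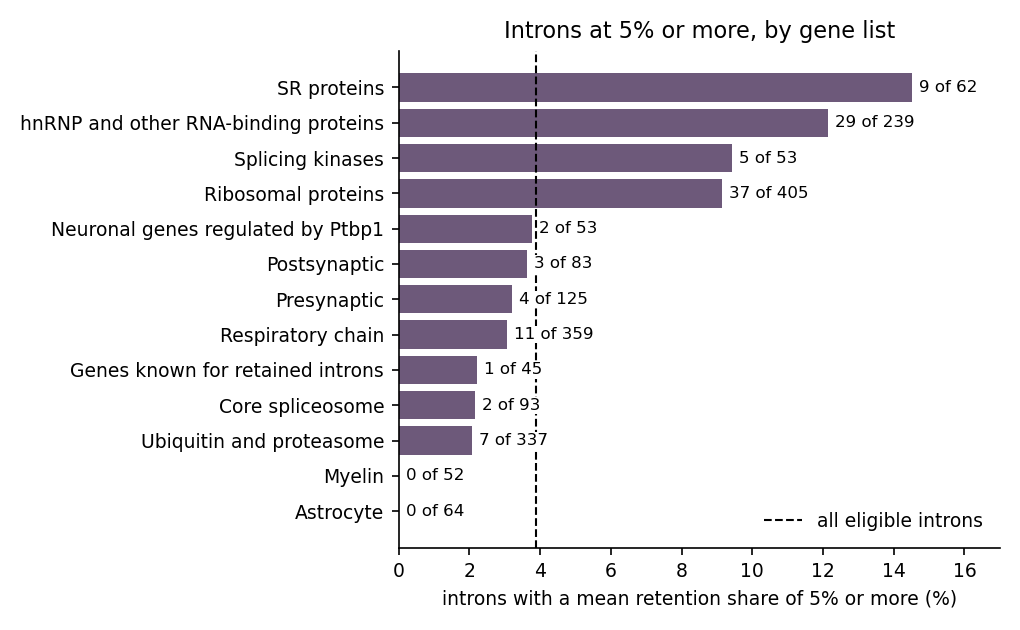
Share of eligible introns with 20 or more informative reads in each library (%) that had a mean retention share of 5% or more, by gene list, with counts beside the bars; the dashed line is the share over all such introns (3.89%). SR protein genes stood at 14.5% and hnRNP and other RNA-binding protein genes at 12.1%, and myelin and astrocyte genes had none. The lists were chosen with earlier results of these data known and were not matched for intron length.

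Shares were compared between the libraries by Fisher's exact test, two-sided, per intron, with Benjamini-Hochberg adjustment over the 9145 introns. The test sets these libraries, not conditions, against counting error alone. In 40 introns of 35 genes the share differed at an adjusted p under 0.05 (0.437% of those tested), and 429 had an unadjusted p under 0.05. The share was higher in replicate 1 in 7 (0.0765%) and higher in replicate 2 in 33 (0.361%). Without regard to any test, 3512 introns had the higher share in replicate 1, 5604 in replicate 2 and 29 were equal. The tested introns were chosen by a retaining read in either library, so an intron retained in 1 library alone takes its direction from that library. Among the 4131 of them retained in both libraries, 1184 had the higher share in replicate 1 and 2918 in replicate 2. That count leans to replicate 2 by its choice of introns. Replicate 2 had fewer informative passages (4247760 against 6347678), so a single retaining read is usually a larger share there. The size of this effect was not tested. Beside this, Known models held 67.1% of mouse reads in replicate 1 and 63.8% in replicate 2, antisense models 6.69% and 9.15%, and Genomic models 5.80% and 6.15%; their part in the difference was not tested.

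Many of the 40 introns rested on where unannotated models begin. In 27 of them the retaining exon was mainly a first exon. For 20, most retaining reads belonged to an intron chain that both libraries held but that reached past the intron in only 1 of them, because the model's start or end was given differently. Such passages made up 30.6% of the retaining passages of the 40 introns, against 3.58% of those of the other 9105. Vamp2 intron 2, in the gene of a synaptic vesicle SNARE, is an example: 111 of 969 reads retained it in replicate 1 (11.5%) and 0 of 541 in replicate 2, which allows up to 0.705% by the Wilson interval (Fisher's exact test, adjusted p = 6.18e-19), and 109 of the 111 were such passages. Without ISM models the difference at Vamp2 intron 2 was 0.233 percentage points (Fisher's exact test, adjusted p = 1). The largest differences in both directions, Snx6 intron 1 with 29.8% in replicate 1 and 1.72% in replicate 2, and Hspbp1 intron 1 with 0 of 31 reads of replicate 1 and 39 of 59 of replicate 2 (66.1%), were of this kind too.

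With internal exons alone, 7 of 5639 introns differed (0.124%), all 7 with the higher share in replicate 2. Ddx5 intron 11 had 68 of 648 reads of replicate 1 (10.5%) and 124 of 494 of replicate 2 (25.1%; Fisher's exact test, adjusted p = 5.48e-07), and Srsf5 intron 5 had 45 of 184 (24.5%) and 66 of 134 (49.3%; Fisher's exact test, adjusted p = 0.0158). With Known models alone the Srsf5 difference, replicate 1 minus replicate 2, was 0.484 percentage points (Fisher's exact test, adjusted p = 1), against -24.4 with all classes. Entr1 intron 5, in the gene of an endosome-associated trafficking regulator, had 24 of 125 (19.2%) and 44 of 94 (46.8%; Fisher's exact test, adjusted p = 0.0307). Rnf112 intron 8, in the gene of a brain-enriched RING finger protein, had 52 of 227 (22.9%) and 74 of 174 (42.5%; Fisher's exact test, adjusted p = 0.0446).

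Fewer reads carried the remaining 3. Rbm3 intron 3, in the gene of a cold-induced RNA-binding protein, had 4 of 193 (2.07%) in replicate 1 and 18 of 126 (14.3%) in replicate 2 (Fisher's exact test, adjusted p = 0.0446). Rap1gap intron 8 had 7 of 345 (2.03%) and 20 of 195 (10.3%; Fisher's exact test, adjusted p = 0.0446). Angel2 intron 5 had 3 of 83 (3.61%) and 16 of 57 (28.1%; Fisher's exact test, adjusted p = 0.0494). Ensa intron 3, in a last exon whose 251 retaining reads were all on Known models, had 125 of 433 (28.9%) in replicate 1 and 126 of 287 (43.9%) in replicate 2, and passed in the test of all exons. When terminal exons counted in Known models alone, a measure added after the values were seen, 8 of 6083 introns differed (0.132%), these 7 and Ensa intron 3, and again all were higher in replicate 2.

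**Figure D5:**
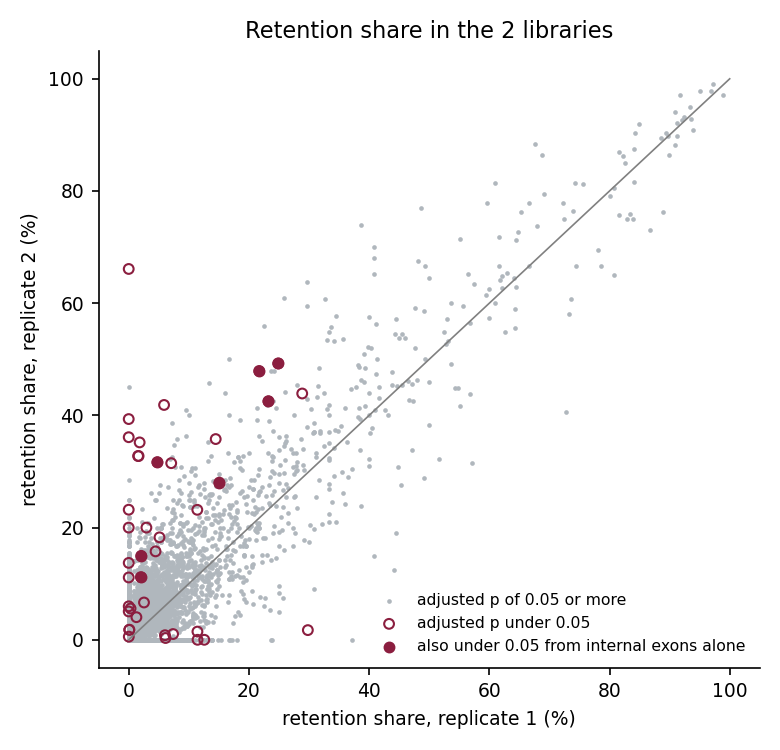
Retention share (%) in replicate 1 (x axis) against replicate 2 (y axis) for the 9145 introns with 20 or more informative reads in each library; the line marks equal shares. Open circles are the 40 introns with an adjusted p under 0.05, and filled circles the 7 of them that also passed with internal exons alone, all above the line.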

How the data were processed

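Long-read RNA-seq of 2 libraries was analysed. For each library the authors deposited raw counts of reads for every transcript model seen at least once, and the models' exon coordinates (1-based, mm10). GENCODE M21 was the annotation, per the file headers, and the source field of unannotated models names TALON. The aligner is not given in the sources used. Replicate 1 held 1072344 mouse reads and replicate 2 held 753520; spike-ins were left out. The tables give each read to 1 gene, so overlapping genes and near-identical copies are uncertain. Wilson intervals (95%) cover counting error only.

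Introns and retaining exons were derived from the exon chains with Python 3.11.15, NumPy 2.4.6 and pandas 2.3.3. Exons of all 28451 Known models checked equalled GENCODE M21. A read counts as splicing when its model has the exact intron. SciPy 1.17.1 gave Fisher's exact tests, tested on simulated data. Sequences are from GENCODE M21 transcripts (mm10) that contain the intron; introns outside them have none here. The introns, the 13 gene lists and the markers were chosen with earlier results of these data known. Named introns are, at most 1 a gene, the 12 with most retaining reads; the 12 with the highest mean share among those with splicing reads of 10% or more; the 5 largest library differences each way; up to 3 a gene list; and 3 each by exon position, shortest, longest and U12-type sites; not every intron so chosen is reported here. Others are named as chosen after their values were seen: in-frame introns, internal introns at 50% or more, genes with most introns and internal calls. Alternatives changed read minimums, model classes, exon position, overlap, splicing definition and test. Those of model class and exon position limited the retaining reads alone and kept all splicing reads.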

Additional observations from a re-analysis of the deposited data

Results flagged for a closer look

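Genomic-class models were left out of the retention shares, since most have a single exon. They nevertheless held whole retained introns: 2197 Genomic reads did so in replicate 1, of 62165, and 1653 in replicate 2, of 46316, which is 3.53% and 3.57% of the reads of that class. Of these, 2192 and 1644 were on models with a single exon, and they covered 623 and 641 of the retained introns. A read of this kind shows no splicing, so whether it came from RNA that kept the intron or from unspliced RNA or DNA was not tested.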

How the results depend on the processing

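The number of retained introns (11637) became 4458 when retaining models needed 2 or more reads, 1194 with Known retaining models alone, 7047 with internal exons alone and 7645 with terminal exons counted in Known models alone, the last chosen after seeing the data. The mean of both libraries' median shares (1.52%) became 2.31% with 2 or more reads, 2.58% with Known models alone and 0.964% with 50 or more informative reads. The 40 introns that differed between libraries became 2 with Known models alone (Ddx5 and Ensa), 7 without ISM, 7 with internal exons, 8 with terminal exons of Known models alone and 22 when adjusted over all eligible introns. With Genomic models added they became 150, of which 57 were higher in replicate 1 and 93 in replicate 2. The remaining settings gave 33 to 57. Without replicate 1 the number retained was 6860, and without replicate 2 it was 7263; the medians were 2.86% and 2.33%. Of the 14 named differences, in percentage points, these turned: Snx6 intron 1 (-1.72) and Srsf5 intron 5 (0.484) with Known models alone; Snx6 intron 1 (-1.72), Grina intron 5 (-0.685), Matk intron 8 (-0.315) and Vamp2 intron 1 (-0.0680) without ISM; Grina intron 5 (-0.685) with internal exons, and it and Snx6 intron 1 (-1.72) with terminal exons of Known models alone. The cause was not tested. Of 76 named shares, 39 moved by more than the SD between libraries with internal exons, 33 with Known models alone, 20 without ISM, 19 with terminal exons of Known models alone, 15 with every overlapping intron counted as splicing and 14 with 2 or more reads; the other settings moved 0 to 4. Depth limits single introns, since 4983 rest on a single read. No paired analysis was possible because there is 1 group.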

Other observations

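Beside the introns of Gria2, Syn1 and Vamp2 described above, the synaptic and glial gene lists held introns at lower shares. Slc17a7, the vesicular glutamate transporter gene, kept intron 3 in 15 of 1172 reads of replicate 1 (1.28%) and 29 of 720 of replicate 2 (4.03%; Fisher's exact test, adjusted p = 0.0487). ISM models held 35 of the 44 retaining reads of Slc17a7, and the difference (-2.75 percentage points) was -0.60 without them (Fisher's exact test, adjusted p = 1); over all alternatives its adjusted p was 0.0178 to 1, with 0.233 when adjusted over all eligible introns. Camk2b, a kinase of the postsynaptic density, kept its last intron 20 in 8 of 561 (1.43%) and 7 of 360 (1.94%), and Grin1, an NMDA receptor subunit gene, kept intron 18 in 1 of 244 and 1 of 118. Aldoc, the astrocyte aldolase gene, kept intron 2 in 24 of 1386 (1.73%) and 11 of 934 (1.18%), and Gfap kept intron 8 in 2 of 163 and 1 of 123. Most retaining reads of Camk2b, Aldoc and Gfap were on ISM models. Without ISM the mean was 0.0903% for Camk2b intron 20, against 1.69%, and 0.0367% for Aldoc intron 2, against 1.45%. For Gfap intron 8 it was 0.309%, against 1.02%.

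Among proteasome genes, Psmc4, an ATPase subunit of the regulatory particle, kept intron 8 in internal exons in 15 of 229 reads of replicate 1 (6.55%) and 12 of 160 of replicate 2 (7.5%). Psmd4, the ubiquitin receptor subunit, kept intron 6 in 7 of 170 (4.12%) and 14 of 168 (8.33%). Psmb10, an immunoproteasome subunit gene, kept intron 1 in first exons of ISM models alone, in 10 of 28 (35.7%) and 15 of 28 (53.6%). Of the genes known for retained introns, Arc, which neurons induce with activity, kept its 3′ UTR intron 2 in 1 of 37 and 1 of 33 reads, and Fmr1, the fragile X RNA-binding protein gene, kept intron 13 in 0 of 46 and 2 of 37.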
